A study of Rattus norvegicus with 9 samples.

Results

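In rat kidney, 105 of 22637 genes had a count of 0 in each of 3 control kidneys and 10 or more counts in each of 3 kidneys treated with mesenchymal stem cells (MSCs). The measured counts of these 6 libraries chose the genes, so their contrast between control and MSC kidneys is a description and was not tested as a finding. Counts in the 3 kidneys with modelled chronic kidney disease (CKD) took no part in the choice. The kidneys came from rats of the SD strain (Sprague-Dawley, an outbred stock), and the titles give 3 groups of 3: control, CKD model and MSC-treated. The series title places the treatment in CKD rats, with cells infused into the renal parenchyma under ultrasound guidance. MSC kidneys thus differ from control kidneys in the disease model as well as in the treatment. The choice of genes cannot tell the disease model and the treatment apart. The means of inducing CKD, the source and dose of the cells, the rats' age and sex and the sampling time are not stated in the sources used here. Nor was it stated whether the libraries of a group came from separate animals, so every spread below is a spread between libraries, which may in part be technical.

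MSCs are multipotent stromal cells that can be grown from bone marrow, fat or umbilical cord. In injured kidney they are best known for the factors they secrete, which act on tubular, vascular and immune cells, while lasting engraftment is usually limited. Whole-kidney RNA sequencing averages over all these cells. A transcript that is absent from control kidney and present in treated kidney can come from cells that entered the tissue, from resident cells that multiplied or from a gene that was switched on. In bulk tissue more cells of a type and more RNA per cell cannot be told apart.

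The deposited table identifies genes by Ensembl number only, and 0 of these numbers could be paired with a symbol in the RefSeq gene table used here (47357 rat genes). The 105 genes are therefore described by their counts, and only 2 of them are given by identifier. Their functions, the cell types they mark, their positions and their sequences were not analysed here, nor could the kidney label be checked against marker genes. Library totals were 53059872 to 54234681 counts in control, 56442995 to 58546847 in CKD and 47633344 to 48767298 in MSC kidneys. The MSC libraries, in which the 105 genes were present, had the smallest totals of the 3 groups. They also had the most genes above 0. Over the whole table these numbered 18520 to 18974 in control, 18754 to 19451 in CKD and 19461 to 19544 in MSC kidneys. A count of 0 allows up to 3 counts, or 0.0557 to 0.0615 CPM (counts brought to 1 library size with TMM factors) in the controls. In MSC kidneys 3 counts were 0.0583 to 0.0626 CPM, so with TMM factors the depths of control and MSC libraries overlapped. A count of 10 has a 95% Poisson interval of 4.80 to 18.4. Both limits cover counting error only.

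The 105 genes were a small part of what the controls lacked. A count of 0 in every control was recorded for 2096 genes, of which the 105 are 5.01%. Of these 2096 genes, 1706 reached 10 counts in no MSC kidney, 186 in 1, 99 in 2 and 105 in all 3. The reverse pattern, 10 or more counts in every control and 0 in every MSC kidney, was shown by 7 genes. Every MSC library also had more genes above 0 in the whole table than any control. The part of that difference in these numbers was not tested.

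Most of the 105 genes were present at low level in the MSC kidneys. Their counts ran from 10 to 664 with a median of 39 in MSC replicate 1, from 10 to 398 with a median of 35 in replicate 2 and from 10 to 135 with a median of 20 in replicate 3. The mean over the MSC kidneys ranged from 0.277 to 5.83 CPM between genes, with a median of 0.703 CPM. The mean in MSC kidneys was set against the counting limit of a 0 in the controls (3 counts per library, in the control with the highest limit). It was 4.51-fold above that limit for the lowest gene and 94.7-fold above it for the highest. The median of these ratios was 11.4-fold. They are lower bounds of the fold only where a 0 stands for at most 3 counts. Some zeros in this table stand beside high levels in the other kidneys, as described below. A lowest MSC count of 50 or more was reached by 9 of the 105 genes.

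The 2 genes with the highest lowest count in MSC kidneys were ENSRNOG00000059447 and ENSRNOG00000048167. ENSRNOG00000048167 had 664, 125 and 96 counts in MSC replicates 1, 2 and 3, 8, 11 and 4 in the CKD kidneys and 0 in each control. Its MSC and CKD values did not overlap, and MSC replicate 1 lay far above the other two. In CPM it averaged 5.83 ± 6.14 in MSC and 0.129 ± 0.0526 in CKD kidneys (SD, n = 3 each), and its log2 fold between them was 5.46 ± 0.92 (SE, edgeR quasi-likelihood test, adjusted p = 0.0108). Without MSC replicate 1 the log2 fold was 4.12 (edgeR adjusted p = 0.0202), and over all alternatives run the adjusted p stayed at or below 0.0451. ENSRNOG00000059447 had 466, 127 and 97 counts in the MSC kidneys, 115, 21 and 0 in the CKD kidneys and 0 in each control. Here CKD replicate 1 overlapped the MSC values: CPM was 2.02 in CKD replicate 1 and 1.99 in MSC replicate 3. Its means were 4.57 ± 3.91 CPM in MSC and 0.785 ± 1.08 CPM in CKD kidneys (SD, n = 3 each), with a log2 fold of 2.54 ± 1.34 that did not pass the threshold (SE, edgeR adjusted p = 0.207). Both genes were chosen for counts in MSC kidneys, which favours a positive fold over CKD, so neither value is independent support.

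**Figure D1:**
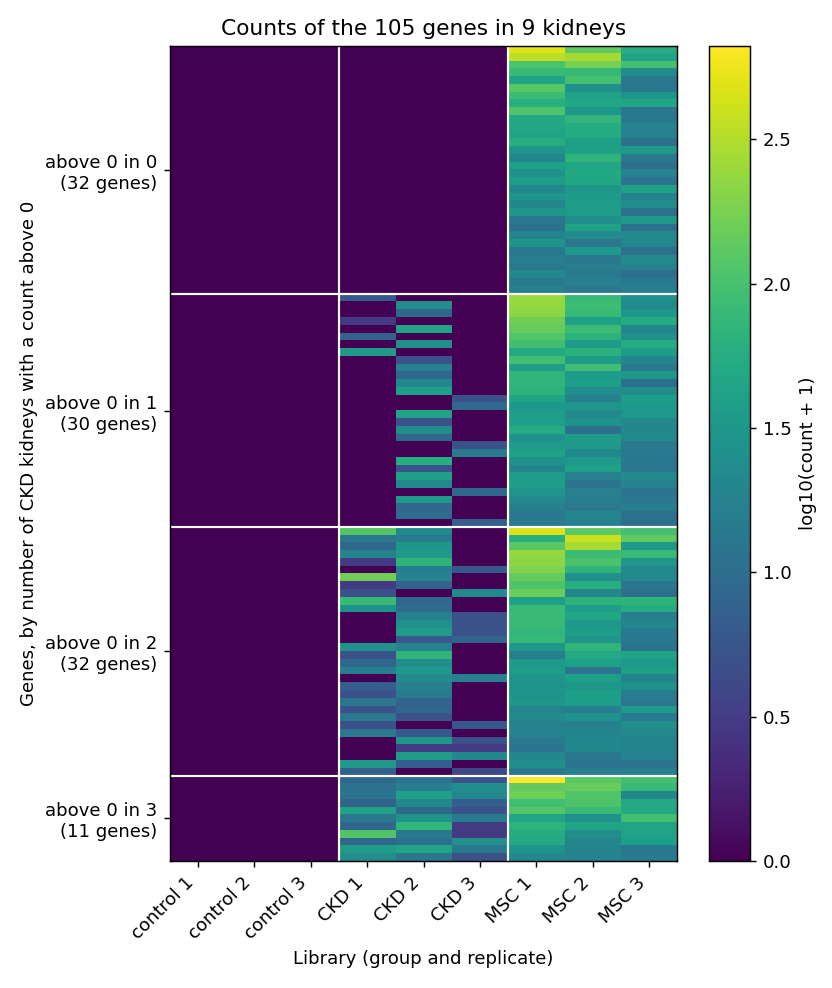
Counts of the 105 genes (rows) in the 9 kidneys (columns, by group and replicate), as log10(count + 1). Rows are grouped by the number of CKD kidneys with a count above 0 and ordered within a group by mean CPM in MSC kidneys. The control columns are at 0 by choice, 32 genes are also at 0 in every CKD kidney and 11 have counts in all 3.

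The choice did not use the CKD kidneys, although with controls fixed at 0 they could not lie lower. Of the 105 genes, 32 (30.5%) had 0 counts in every CKD kidney, 30 were above 0 in 1 kidney, 32 in 2 and 11 in all 3. A count of 10 or more was reached in no CKD kidney by 54 genes, in 1 by 36, in 2 by 11 and in all 3 by 4. Without CKD replicate 2, the number of genes at 0 in every remaining CKD kidney was 52 instead of 32. It was 36 without CKD replicate 1 and 38 without CKD replicate 3. Leaving out a kidney could only keep or raise this number.

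CKD replicate 2 held counts for the most members. Counts above 0 were recorded for 60 of the 105 genes in CKD replicate 2, for 38 in replicate 1 and for 29 in replicate 3. Of the 30 genes above 0 in a single CKD kidney, 20 were so in replicate 2, 4 in replicate 1 and 6 in replicate 3. Replicate 2 was also the CKD library with the most genes above 0 in the whole table, 19451 against 18956 in replicate 1 and 18754 in replicate 3. The part of that difference in the counts of the 105 genes was not tested.

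The same order of the CKD libraries was seen in the other 1991 genes that were at 0 in every control. Of these, 30.4% were above 0 in CKD replicate 2, 21.5% in replicate 1 and 18.3% in replicate 3, against 57.1%, 36.2% and 27.6% of the 105 genes. At 10 counts or more the shares in the same order were 5.42%, 2.51% and 1.41% of the other genes and 39.0%, 19.0% and 8.57% of the 105. In CKD replicate 2, the share at 10 counts or more was 2.81% of genes that reached 10 counts in no MSC kidney, 17.7% of those that did so in 1, 27.3% of those in 2 and 39.0% of the 105. In CKD replicate 1 these shares were 1.58%, 8.06%, 8.08% and 19.0%, and in CKD replicate 3 they were 1.11%, 1.61%, 6.06% and 8.57%. The share above 0 did not follow this order in CKD replicate 3, at 18.8%, 15.6%, 15.2% and 27.6%. These shares describe genes of the same libraries, which are not replicates, and were not tested. Genes at 0 in all 9 libraries are not in the table, so a gene with no count in the MSC kidneys is in it only with counts in CKD kidneys.

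**Figure D2:**
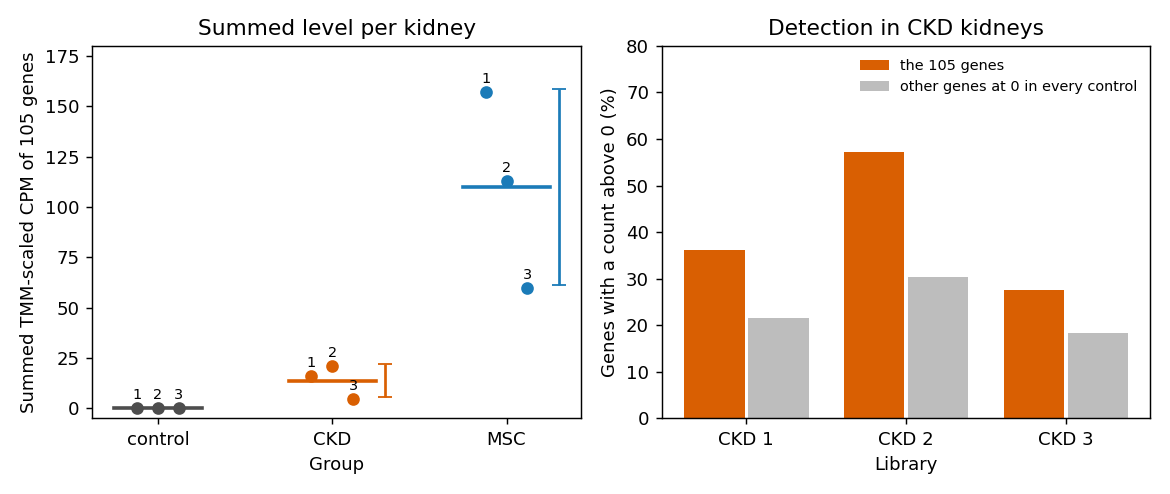
Left, summed TMM-scaled CPM of the 105 genes in each kidney (points, numbered by replicate), with the group mean (line) and SD (bar, n = 3, not drawn for controls, which are at 0 by choice). Right, the percentage of genes with a count above 0 in each CKD kidney, for the 105 genes and for the other 1991 genes at 0 in every control. The sums are 59.7 to 156.9 CPM in MSC and 4.62 to 20.8 CPM in CKD kidneys, and CKD replicate 2 has the highest share in both sets of genes.

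Summed over the 105 genes, the level was 156.9, 113.04 and 59.7 CPM in MSC replicates 1, 2 and 3 and 15.8, 20.8 and 4.62 CPM in the CKD kidneys. The sums of both groups did not overlap, but the high values in MSC kidneys were part of the choice. The means were 109.9 ± 48.6 CPM in MSC and 13.7 ± 8.28 CPM in CKD kidneys (SD, n = 3 each). In CKD replicate 1 the 5 genes with the most counts held 56.7% of the members' counts, against 23.8% in CKD replicate 2 and 42.8% in CKD replicate 3. One of the 5 in CKD replicate 1 had 161 counts there, 17 in replicate 2, 0 in replicate 3 and 143, 26 and 21 in the MSC kidneys. Another had 112, 13 and 2 counts in the CKD kidneys and 54, 24 and 41 in the MSC kidneys. In both, CKD replicate 1 was the highest CKD library and, in CPM, lay above every MSC kidney.

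The test of CKD against control kidneys is given as a description, because the choice fixed the controls at 0 and all 105 genes passed the filter on low counts through the MSC kidneys. It cannot show whether the disease model changed these genes. edgeR's quasi-likelihood test called 0 of the 105 (lowest adjusted p = 0.409), as it called 0% of all 17584 genes tested. An unadjusted p under 0.05 was found for 46 of the 105, against 6.55% of all tested genes, where the controls at 0 by choice let these genes lie only higher in CKD kidneys. limma-voom also called 0 of the 105, as it called 0% of all tested genes higher. DESeq2 called 13, all higher in CKD kidneys, against 0.22% of all genes it tested. Nothing is read from these differences from the background.

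The 4 genes with 10 or more counts in every CKD kidney had CKD counts of 35, 46 and 13, of 12, 28 and 14, of 11, 40 and 20, and of 10, 15 and 23 in replicates 1, 2 and 3. The first of them had 28, 18 and 13 counts in the MSC kidneys and was the only one of the 105 genes with a higher mean CPM in CKD than in MSC kidneys, at a ratio of MSC to CKD means of 0.750. The last had 137, 146 and 78 counts in the MSC kidneys, a ratio of 8.82, and its values did not overlap between the groups. Leaving out a library loosens the choice or the CKD condition, so the number of such genes could only stay or rise. The choices without control replicate 1, 2 or 3 held 197, 157 and 154 genes, of which 9, 12 and 10 were such genes. Leaving out CKD replicate 1 gave 7 such genes and leaving out CKD replicate 3 gave 12.

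MSC kidneys were set against CKD kidneys to see how far the treated kidneys stood from the CKD model kidneys. The group titles name no infusion without cells, so effects of the cells and of the infusion cannot be told apart. In 76 of the 105 genes every MSC value in CPM lay above every CKD value, against 22.1% of all tested genes, and in 12 genes a CKD library lay above all 3 MSC kidneys. edgeR called 45 of the 105 genes higher in MSC kidneys and 0 lower, where 11.4% of all tested genes were called higher. Counts in every MSC kidney were a condition of the choice, so nothing is read from this difference. All 32 genes at 0 in every CKD kidney were called and 13 of the 73 with CKD counts, a split that follows from the CKD counts that define it and from the choice. The number called was 12 without MSC replicate 1, 8 without MSC replicate 2, 21 when CKD replicate 1 was left out and 19 when CKD replicate 3 was. In MSC against control, the choice itself fixed the outcome on the same 6 libraries. There edgeR called 99 of the 105 genes higher, beside 16.9% of all tested genes, which is no evidence about these genes. That number was 42 without MSC replicate 1, 42 without MSC replicate 2 and 60 without control replicate 3. The shares of all tested genes called in the fits without a library are not given here, so nothing is read from these changes.

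Among the 32 genes at 0 in every control and every CKD kidney, the one with the highest lowest MSC count had 105, 174 and 94 counts in the MSC kidneys. Its MSC mean was 46.9-fold above the counting limit of a 0 in the CKD kidneys. Others were less even, one with 486, 134 and 56 counts and another with 348, 274 and 43. At lower level but evenly present was a gene with 58, 48 and 45 counts. Over the 32 genes the ratio of the MSC mean to this counting limit in CKD kidneys ran from 5.37 to 82.8, with a median of 11.9. It is a lower bound of the fold over CKD only as far as counting error goes. In the 73 genes with CKD counts the ratio of MSC to CKD mean CPM ran from 0.750 to 144.4, with a median of 5.82. The highest of these ratios came from a gene with 161, 39 and 55 counts in MSC kidneys and 2, 0 and 0 in CKD kidneys, so its size rests on 2 counts.

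**Figure D3:**
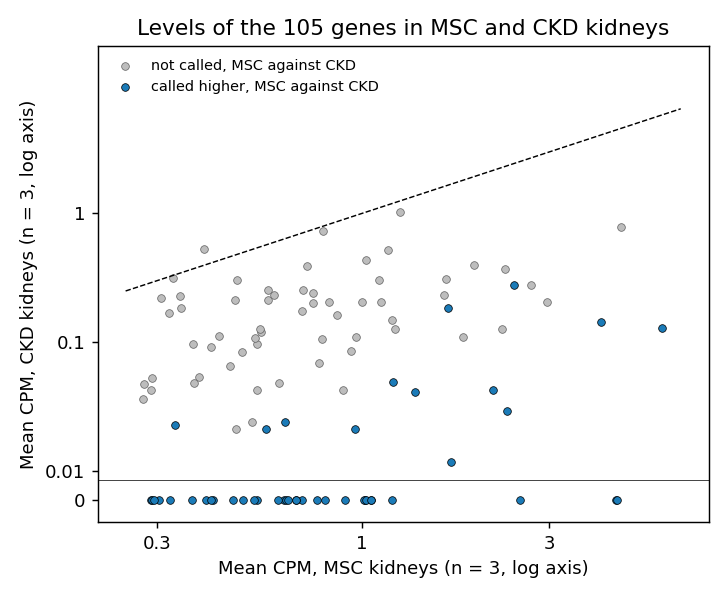
Mean CPM of each of the 105 genes in MSC kidneys (horizontal, log axis) and CKD kidneys (vertical, log axis, with genes at 0 drawn below the line), n = 3 each. The dashed line marks equal means, and blue points passed edgeR's test of MSC against CKD at adjusted p under 0.05. All 32 genes at 0 in CKD kidneys and 13 of the other 73 are blue, which follows from the values that define both sets, and 1 gene lies above the dashed line.

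The MSC kidneys were uneven among themselves, in a common direction over the 105 genes. MSC replicate 3 was the lowest MSC kidney for 69 of them in CPM (65.7%), against 40.0% of all tested genes. MSC replicate 1 was the highest for 53 (50.5%), against 38.4% of all tested genes. Relative to each gene's own mean over the MSC kidneys, the median was 0.23 in replicate 1, 0.0082 in replicate 2 and -0.61 in replicate 3 on the log2 scale. The highest of the 3 MSC values was a median of 2.71 times the lowest in the 105 genes. In the 3212 genes of the table whose lowest MSC count lay in the same range (10 to 97) the median ratio was 1.86. In those genes MSC replicate 3 was the lowest for 41.6% and replicate 1 the highest for 36.2%. The minimum of 10 counts also cuts off genes that were lower still in MSC replicate 3.

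**Figure D4:**
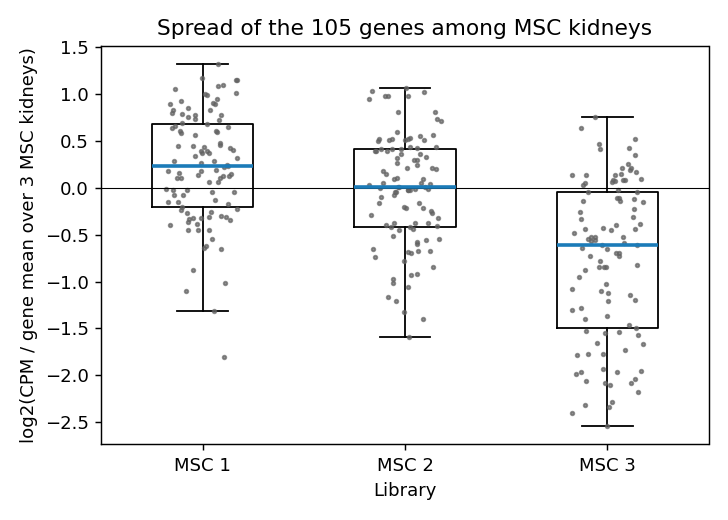
Level of each of the 105 genes in each MSC kidney relative to its mean over the 3 MSC kidneys, as log2 of the CPM ratio. Boxes show the quartiles and the median (blue line), whiskers reach up to 1.5 times the box, and points are genes. The medians are 0.23, 0.0082 and -0.61 in replicates 1, 2 and 3.

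To see how far the choice held in a library it had not used, it was repeated without each control and each MSC kidney in turn. Without MSC replicate 1, 120 genes were chosen, and 87.5% of them had 10 or more counts in that library. The share was 80.2% of 131 genes for MSC replicate 2 and 64.4% of 163 genes for MSC replicate 3. In these left-out MSC kidneys 5.83%, 10.7% and 17.8% of the chosen genes had 0 counts. Among all genes with 10 or more counts in both other MSC kidneys and a mean of those under 50, the shares were 2.64%, 3.18% and 3.79%. The chosen genes were not limited to that mean and were at 0 in every control by choice.

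Silence in a left-out control was also partial. Without control replicate 1, 197 genes were chosen, of which 53.3% had 0 counts in that kidney, 20.8% had 1 to 9 and 25.9% had 10 or more, up to 302. In control replicate 2, left out, 66.9% of 157 genes were at 0 and 9.55% at 10 or more, and in control replicate 3 the shares were 68.2% and 15.6% of 154 genes. The third control thus removed 92 genes when it was replicate 1, 52 when it was replicate 2 and 49 when it was replicate 3.

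**Figure D5:**
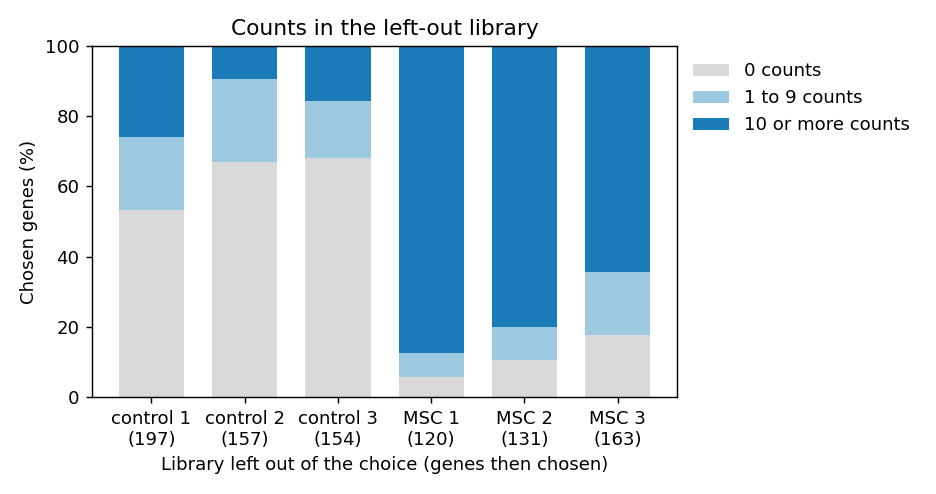
Counts in a library that was left out of the choice, as the percentage of the genes then chosen (number in parentheses) with 0, 1 to 9 and 10 or more counts. In left-out controls 53.3% to 68.2% of the genes are at 0, and in left-out MSC kidneys 64.4% to 87.5% have 10 or more counts.

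A count of 0 in a single library was not rare for genes of this level. Among genes with 10 or more counts in both other controls and a mean of those under 50, 3.96%, 4.07% and 6.57% had 0 counts in control replicates 1, 2 and 3. The same share ran from 2.79% to 7.74% in CKD and from 2.64% to 3.79% in MSC kidneys. Of the genes with 10 or more counts in all 8 other libraries, far fewer were at 0. They were 19 of 15021, 20 of 15047 and 26 of 15091 in control replicates 1, 2 and 3. In CKD replicates 1, 2 and 3 they were 9 of 15021, 3 of 14998 and 21 of 15049. In MSC replicates 1, 2 and 3 they were 18 of 15073, 9 of 15053 and 5 of 15020. One gene at 0 in control replicate 1 averaged 2077 counts over the other 8 libraries. A 0 in this table can therefore stand beside a high level in all other kidneys. How such values arose is not stated in the sources used here and was not tested.

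At the limit of the choice, 11 genes had a lowest MSC count of 10, and 7 genes at 0 in every control had a lowest MSC count of 9 and 15 one of 8. Just inside were genes with 56, 39 and 10 counts and with 10, 41 and 10 counts in the MSC kidneys. Just outside were genes with 86, 62 and 9 and with 10, 32 and 9 counts. These examples were at 0 in every CKD kidney, but others on both sides had CKD counts. A gene just outside had 7, 4 and 10 counts in CKD replicates 1, 2 and 3, and a gene just inside had 0, 24 and 0. At a minimum of 20 counts 41 genes were left, of which 9 were at 0 in every CKD kidney. With up to 1 count allowed in each control the number was again 105, and with up to 3, a limit added after the data were seen, it was 124. A value of 1 was also absent from the 315 CKD values of the 105 genes, though 3545 values in the whole table were 1. The unchanged number at 1 count is therefore not read as support for the choice.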

How the data were processed

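Polyadenylated RNA of 9 rat kidneys (3 control, 3 CKD, 3 MSC) was sequenced from strand-specific libraries, per the labels' protocols. The submitters' processing notes name cutadapt, HISAT2, StringTie and the genome build Rnor_6.0. No source used here states versions, annotation release, strand setting or filters. The authors deposited whole-number raw counts for 22637 Ensembl gene identifiers, and no row was 0 in all 9 libraries.

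Genes were chosen by counts as deposited (0 in each control, at least 10 in each MSC kidney). All 105 passed filterByExpr, through the MSC libraries in which they were chosen to be present. Tests used edgeR 4.0.16 (R 4.3.3) on all 9 libraries, modelled by group alone: 17584 genes, TMM factors, robust quasi-likelihood, two-sided, Benjamini-Hochberg adjustment over all tested genes, threshold 0.05. SEs were derived from the F statistic. The fit was tested on simulated data in which 200 expressed genes were changed. That setting does not cover genes at 0 in every control, so it gives no assurance for the 105. DESeq2 1.42.0, limma 3.58.1, DESeq2 size factors, no filter, a replicate block, thinning, other count limits and leaving out libraries were alternatives. The 2 identifiers printed are those with the highest lowest MSC count. The rule also named further members, which are given by their counts or in ranges. The 24 gene lists and sequences were not used, since no identifier had a symbol. The members, lists and rules were chosen with earlier results of these data known.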

Additional observations from a re-analysis of the deposited data

How the results depend on the processing

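Of 79 recomputed counts of genes, 56 lay within 1.5 times of the reported value. This tally includes counts in CKD against control, where the main fit called 0 of all 17584 tested genes. It also includes counts in MSC against control, whose outcome the choice fixed. The tally is therefore no measure of how stable the results are. The number of chosen genes was 41 at a minimum of 20 counts and 171 at 5, by construction, and ran from 120 (without MSC replicate 1) to 197 (without control replicate 1), with 163 without MSC replicate 3. Genes at 0 in every CKD kidney numbered 9 at a minimum of 20 counts and 53 at 5, and ran from 36 to 55 (without MSC replicate 3), with 52 without CKD replicate 2. Genes with 10 or more counts in every CKD kidney numbered 2 at a minimum of 20 counts, 2 with libraries thinned to the smallest total, and 4 to 12 without single libraries. In CKD against control, DESeq2 called 13 of the 105 genes where edgeR called 0, and the cause was not tested. Without single libraries that number stayed at 0. In MSC against CKD leaving out single libraries gave 8 calls at the lowest, without MSC replicate 2, and 63 at the highest, without CKD replicate 2, and in MSC against control, over left-out libraries, the calls ran from 42 (without MSC replicate 1 or 2) to 103, with 60 without control replicate 3. DESeq2 called 105 there. A fit with the replicate block called 0, 32 and 80 of the 105 genes in CKD against control, MSC against CKD and MSC against control. The main fit, without the block, called 0, 45 and 99. Shares of all tested genes are given only for the main fit and, in CKD against control, for DESeq2 and limma-voom. Changes in these counts can therefore not be told apart from changes over the whole table. No label states a pairing by number: of 9 same-numbered pairs across groups 3 correlated above 0.1 in their deviations from the group means, all of replicate 3. The highest correlation, 0.298, joined CKD replicate 2 and MSC replicate 1, whose numbers differ. On the other side, for 6 of 9 libraries the closest partner in another group carried the same number. With no pairing stated, the main fit did not use the numbers, and whether they stand for pairs was not tested. The log2 fold of ENSRNOG00000048167 between MSC and CKD ran from 4.12 to 5.87 over the alternatives (adjusted p at most 0.0451), and that of ENSRNOG00000059447 from 1.56 to 4.72 (adjusted p at least 0.0550). The gene lists, lacking symbols, were not computed under any setting. Depth limits genes near 10 counts.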
